A study of Rattus norvegicus with 20 samples.

Results

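The replacement of part of the soybean oil by fish oil was examined in the livers of rats fed casein, by setting the 5 arrays of the CF group against the 5 arrays of the CS group. These are 10 of the 20 arrays of the series, chosen by the diet in the labels, and the other 10 are livers of rats fed tofu with the same oils (TF and TS, 5 each). All were male Sprague-Dawley rats, a common outbred stock, which were obtained at 4 weeks of age and kept on the diet for 21 days. Each diet held 200 g/kg of protein and 150 g/kg of fat. The CF diet held 50 g/kg of tuna-derived fish oil and 100 g/kg of soybean-derived fat, and the CS diet held 0 g/kg of fish oil and 150 g/kg of soybean-derived fat, so that more fish oil and less soybean fat cannot be told apart. The tofu diets were matched in the same way, and casein was added to them to complete the protein. Rats were deprived of food for 3 h before the liver was taken, and the rats that had eaten most and least were not put on arrays. Total RNA of each liver was hybridised to its own array.

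Fish oil is rich in long-chain n-3 polyunsaturated fatty acids. In the hepatocyte such fatty acids and their acyl-CoA esters are ligands of PPARα, a nuclear receptor that pairs with RXR and raises transcription of genes for fatty acid oxidation in mitochondria and peroxisomes. Acyl-CoA enters mitochondria through the carnitine shuttle, peroxisomes shorten the chains that mitochondria handle poorly, CYP4A enzymes hydroxylate the far end of the chain, and acyl-CoA thioesterases release the free fatty acid and coenzyme A. The same fatty acids lower the activity of SREBP-1c, which drives the synthesis of fatty acids. The question addressed by CF against CS is which liver transcripts differ with the oil when the protein is casein.

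The values are z scores, in which each array is standardised to its own distribution of log signals. A z of about 0 is the middle of the array, and by the study's methods a difference of 0.2 stands for a ratio equal to the square root of 2. Fold differences below were derived from that relation and are given only where both group means lay above the median of every array. Of 31039 probe sets tested with limma, 14 had a Benjamini-Hochberg adjusted p under 0.05 (called below), which is 0.0451% of them. Of these, 13 were higher in CF and 1 was lower, and they stood for 13 genes. With the brightest probe set standing for each gene (by the mean of the 20 arrays), 12 of 14217 genes were called (0.0844%), all higher in CF. In all 14 called probe sets the 5 CF rats and the 5 CS rats did not overlap. Over all probe sets, CF lay wholly above CS in 0.535% and wholly below it in 0.238%. The calls were made on the same values, so the lack of overlap is not separate support for them.

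Array medians lay between -0.0658 and -0.0151 in CF and between -0.0682 and -0.0325 in CS. The 7 array checks between the groups each had an adjusted p of 1.0 (two-sided exact permutation tests). Rats CF-1 and CS-1 stood apart in both beta-actin checks. The control probe set at the 5′ end of beta-actin was at 1.39 to 1.42 in these rats and at 1.95 to 2.13 in the other 8. CF-1 also had the smallest response, with the lowest CF value in 9 of the 12 called genes and a mean of 0.421 above the CS mean over them, against 0.639 to 0.837 in the other CF rats. CS-1 had the highest CS value in 7 of the 12, and the other CS rats in 0 to 3. The part of RNA quality in this was not tested. Without CF-1, 22 probe sets were called. The 4 arrays of the series with a low 5′ beta-actin value were CF-1, CS-1, TS-1 and TF-3, the lowest rat number of each group. Without them 17 were called, which included all 14.

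Among the acyl-CoA thioesterases 3 genes rose, and Acot1 had the largest difference of all called genes. Acot1, the cytosolic long-chain enzyme, was at z scores of 0.692, 1.90, 2.52, 2.55 and 2.23 in CF-1, CF-2, CF-5, CF-6 and CF-7, and at -0.0457, -0.0609, -0.918, -0.525 and -0.196 in CS-1, CS-2, CS-5, CS-6 and CS-7. It lay below 0 in every CS rat and above 0 in every CF rat, with CF-1 the lowest of the 5. The mean rose by 2.33 (SE 0.312, limma adjusted p = 0.00537). No fold is given since the CS mean was below the array medians. In a liver total, more Acot1 RNA per cell and more cells that express it cannot be told apart.

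Acot2 encodes the mitochondrial long-chain thioesterase. Its brightest probe set was at 1.70, 1.83, 2.05, 2.01 and 1.85 in CF-1, CF-2, CF-5, CF-6 and CF-7, and at 1.29, 1.48, 1.31, 1.32 and 1.33 in CS-1, CS-2, CS-5, CS-6 and CS-7. The groups did not overlap, and CS-2 was the highest CS rat. The difference was 0.54 (SE 0.0771, adjusted p = 0.00630), or 2.55-fold. A second Acot2 probe set rose by 0.53 (adjusted p = 0.00496), and the third had a difference of 0.42 (adjusted p = 0.382) with overlapping groups.

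Acot4, a peroxisomal thioesterase for dicarboxylic acyl-CoA, ranged from 1.54 to 1.90 in CF and from 1.18 to 1.48 in CS. CF-1 was again the lowest CF rat, just above the highest CS rat. The difference was 0.46 (SE 0.0767, adjusted p = 0.0258), or 2.23-fold. Acot1, Acot2 and Acot4 share much of their sequence, and 1 further probe set is annotated to both Acot1 and Acot2. It had a difference of 1.26 (adjusted p = 0.0573), and signals of single genes in this family are uncertain.

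The promoters of Acot1, Hdc, Acot2 and Ehhadh are shown because PPARα binds near the start of many of its targets, and these had the largest differences among the called genes with an entry in the table used. That of Acot4, the neighbour of Acot1 and Acot2, is shown for its sequence match. In the GRCr8 assembly (RefSeq) the start of Acot1 lies 24.4 kb, and that of Acot4 57.0 kb, downstream of the start of Acot2 on chromosome 6. Of the 12 called genes higher in CF, 9 had a promoter of 300 bases in that table, 250 before the start and 50 after it. Vnn1, Cyp4a1 and Ech1 had no entry. The element searched on both strands was 2 copies of AGGTCA separated by 1 base of any kind, the direct repeat bound by PPARα with RXR. Each is written 5′ to 3′ on the strand of its gene. Capitals mark bases that match it in the Acot4 promoter, where the search found it with 1 mismatch on the opposite strand, and the other promoters are in lower case throughout.

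Acot2 (chr6:109342590-109342889, plus strand): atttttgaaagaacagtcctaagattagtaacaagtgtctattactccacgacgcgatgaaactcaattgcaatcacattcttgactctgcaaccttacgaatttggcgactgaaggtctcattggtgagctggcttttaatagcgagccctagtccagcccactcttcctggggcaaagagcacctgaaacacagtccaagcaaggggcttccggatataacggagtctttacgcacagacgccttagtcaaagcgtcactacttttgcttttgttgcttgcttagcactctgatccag
Acot1 (chr6:109367024-109367323, plus strand): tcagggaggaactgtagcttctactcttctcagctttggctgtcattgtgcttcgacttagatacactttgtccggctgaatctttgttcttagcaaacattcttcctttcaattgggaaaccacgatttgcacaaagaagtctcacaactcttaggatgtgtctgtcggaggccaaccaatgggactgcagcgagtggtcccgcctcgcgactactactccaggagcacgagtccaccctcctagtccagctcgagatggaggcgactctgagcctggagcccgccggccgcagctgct
Acot4 (chr6:109399604-109399903, plus strand): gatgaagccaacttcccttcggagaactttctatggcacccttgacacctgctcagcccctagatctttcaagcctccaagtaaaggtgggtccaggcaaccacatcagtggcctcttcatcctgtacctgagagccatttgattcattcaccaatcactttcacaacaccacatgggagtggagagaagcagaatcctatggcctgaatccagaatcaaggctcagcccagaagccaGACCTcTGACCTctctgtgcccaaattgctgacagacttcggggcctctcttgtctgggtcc
Hdc (chr3:134318655-134318954, minus strand): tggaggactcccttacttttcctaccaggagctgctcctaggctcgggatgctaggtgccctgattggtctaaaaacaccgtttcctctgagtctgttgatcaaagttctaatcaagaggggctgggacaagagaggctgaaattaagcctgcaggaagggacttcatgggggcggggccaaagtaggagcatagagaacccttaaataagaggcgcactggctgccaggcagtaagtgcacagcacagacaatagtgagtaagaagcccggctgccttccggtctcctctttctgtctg
Ehhadh (chr11:92746159-92746458, plus strand): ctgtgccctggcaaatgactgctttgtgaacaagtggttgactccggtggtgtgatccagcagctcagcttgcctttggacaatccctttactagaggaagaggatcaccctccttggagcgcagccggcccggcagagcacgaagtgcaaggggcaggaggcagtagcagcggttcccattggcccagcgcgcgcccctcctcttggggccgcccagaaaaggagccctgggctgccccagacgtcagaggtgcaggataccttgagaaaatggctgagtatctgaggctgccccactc

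The match in Acot4 begins 13 bases before the start. A match with 1 mismatch or none was present in 147 of 33469 promoters (0.439%) and in 1 of the 9 promoters of called genes. With up to 2 mismatches the share was 3.77% of all promoters, and the count among the 9 was still 1. The Acot4 promoter was added to the 4 chosen by the size of the difference after the matches were seen. The absence of a match says only that these letters are not in the window.

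**Figure D1:**
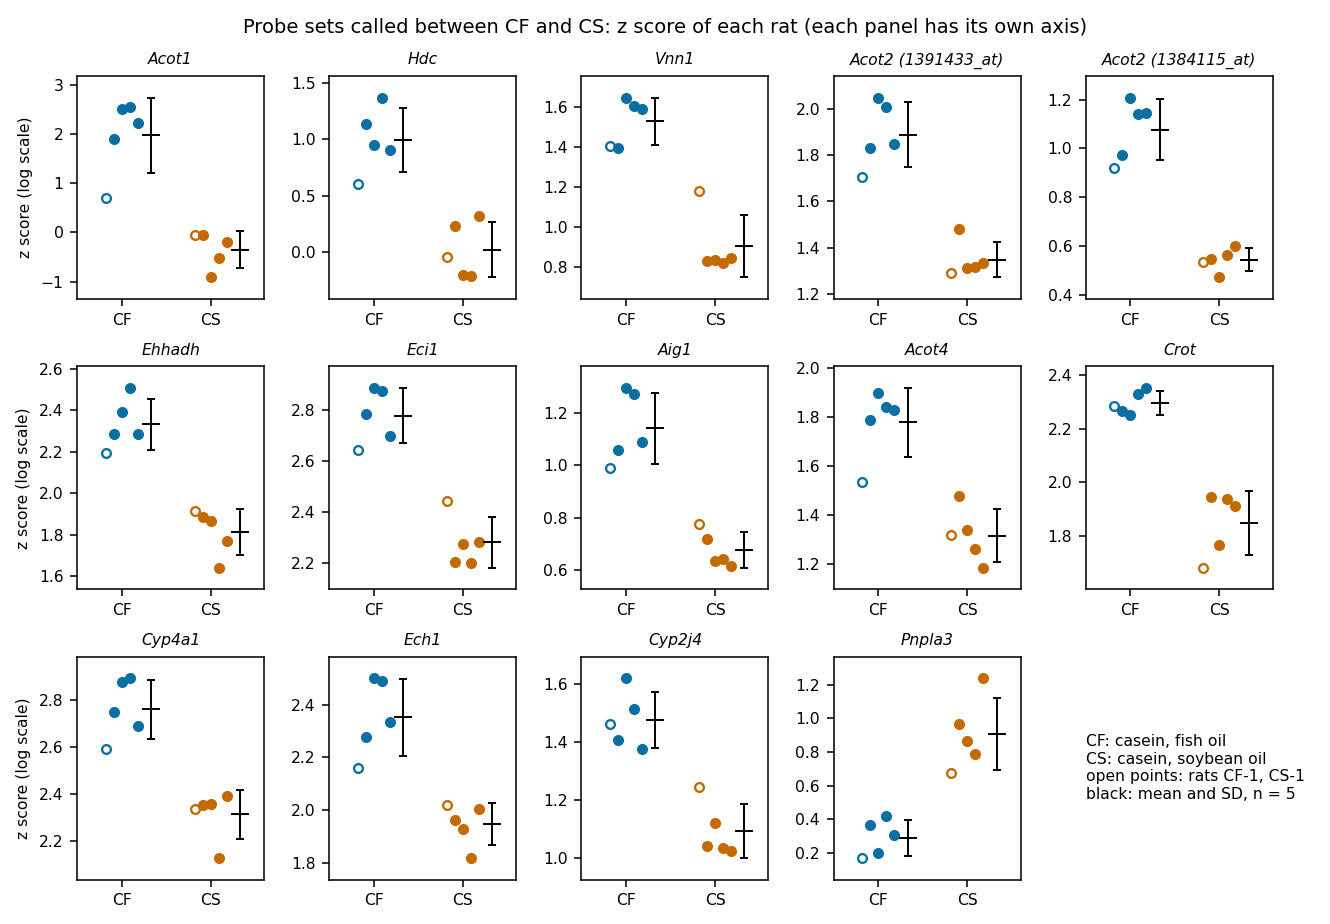
Z score (log scale, vertical axis) of each rat in CF and CS for the 14 called probe sets, 1 panel each with its own axis. Points are rats, with CF-1 and CS-1 open, and black bars are the mean and SD of 5 rats. The panels were chosen for their difference between the groups, which do not overlap in any panel. Pnpla3 is the only probe set lower in CF.

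Among the 10 measured thioesterases of the list, 3 were called and the rest were not. Acot3, a peroxisomal thioesterase, had a difference of 0.45 without overlap (0.539 to 1.17 in CF, 0.345 to 0.502 in CS, adjusted p = 0.224). Acot12, the cytosolic acetyl-CoA hydrolase, and Acot7 had differences of 0.17 and 0.16, and that of Acot8 was 0.06. The median difference of the list was 0.16, against 0.00234 over all genes. The 5 CF rats lay above the 5 CS rats in 4 of the 10, and in 0.57% of all genes.

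In peroxisomes, Ehhadh and Ech1 were called. Ehhadh, the bifunctional enzyme of the middle steps of peroxisomal β-oxidation, was at 2.19, 2.28, 2.39, 2.51 and 2.28 in CF-1, CF-2, CF-5, CF-6 and CF-7. It was at 1.92, 1.88, 1.86, 1.64 and 1.77 in CS-1, CS-2, CS-5, CS-6 and CS-7. The difference of 0.52 (SE 0.0892, adjusted p = 0.0328), or 2.45-fold, was the closest to the threshold among the calls. Ech1, which rearranges the double bonds of unsaturated acyl-CoA, ranged from 2.16 to 2.50 in CF and from 1.82 to 2.02 in CS. It rose by 0.41 (SE 0.0682, adjusted p = 0.0282), or 2.02-fold.

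Of the 17 peroxisomal genes 15 had a positive difference, and 9 had an unadjusted p under 0.05 with higher values in CF, where 2.14% of all genes did. The list's median was 0.12. Pex11a, which promotes division of peroxisomes, was at 1.21 to 1.55 in CF and 0.752 to 1.12 in CS (difference 0.40, adjusted p = 0.0686). Decr2, a peroxisomal reductase for unsaturated acyl-CoA, had a difference of 0.26 (adjusted p = 0.126). Nudt7, which hydrolyses coenzyme A in peroxisomes and was picked after its values were seen, had a difference of 0.23 (adjusted p = 0.0679). These 3 did not overlap between the groups, and none was called. They were picked by their difference or after their values were seen. In the list as a whole the CF rats lay above the CS rats in 5 of 17 genes, and in 0.57% of all genes.

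In mitochondria Eci1 was called. It encodes the isomerase that moves double bonds of unsaturated fatty acids into the position that β-oxidation needs. Its values were 2.64, 2.79, 2.89, 2.88 and 2.70 in CF-1, CF-2, CF-5, CF-6 and CF-7, and 2.44, 2.20, 2.28, 2.20 and 2.28 in CS-1, CS-2, CS-5, CS-6 and CS-7. The lowest values of CF were those of CF-1 and CF-7, and both exceeded CS-1, the highest of CS. The difference was 0.50 (SE 0.0764, adjusted p = 0.0124), or 2.38-fold. A dimmer Eci1 probe set had a difference of 0.05 with overlapping groups. In it CF-5 was at -0.526 and the other CF rats at 0.861 to 1.08, against 0.161 to 0.893 in CS.

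All 16 genes of mitochondrial β-oxidation had a positive difference (that of Echs1 turned negative after quantile normalization, and without CF-1 or CS-7), as had 7372 of 14217 genes. The median of the list was 0.145. At an unadjusted p under 0.05, 11 were higher and 0 lower, where 2.14% and 1.26% of all genes were. Only Eci1 passed the adjusted threshold. Decr1, the reductase for double bonds at even positions, was at 2.53 to 2.64 in CF and 2.26 to 2.38 in CS (difference 0.28, adjusted p = 0.382). Hadha and Hadhb, the subunits of the trifunctional protein, had differences of 0.19 and 0.17 without overlap; Hadhb was picked after its values were seen. The acyl-CoA dehydrogenases differed by 0.17 (Acadvl), 0.14 (Acadm), 0.12 (Acads) and 0.12 (Acadl), and none was called. Echs1, the hydratase, differed by 0.00918.

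The carnitine shuttle held 1 called gene. Crot, the peroxisomal carnitine octanoyltransferase that passes shortened chains on to mitochondria, was at 2.28, 2.26, 2.25, 2.33 and 2.35 in CF-1, CF-2, CF-5, CF-6 and CF-7. It was at 1.68, 1.95, 1.77, 1.94 and 1.91 in CS-1, CS-2, CS-5, CS-6 and CS-7. The groups were apart, and CF-1 was not low. It rose by 0.45 (SE 0.0633, adjusted p = 0.00630), or 2.17-fold. A second Crot probe set had a difference of 0.46 (adjusted p = 0.148), and the dimmest one of 0.09.

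Crat, the carnitine acetyltransferase, was at 1.22 to 1.63 in CF and 0.854 to 1.10 in CS (difference 0.45, adjusted p = 0.0703). Slc22a5, the carnitine importer of the cell membrane, had a difference of 0.31 (adjusted p = 0.179) without overlap. The differences of Cpt2 and Slc25a20, which act at the inner mitochondrial membrane, were 0.24 and 0.21. Cpt1a, the controlled entry step, differed by 0.08 (SE 0.0723), and its groups overlapped. The list's median was 0.21 over 9 genes, of which 8 were positive. Of 4 measured genes for ketone body synthesis and export, 3 were higher in CF at an unadjusted p under 0.05, where 2.14% of all genes were. None was called, with Acat1 at a difference of 0.25, Bdh1 at 0.11 and Slc16a1 at 0.11.

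**Figure D2:**
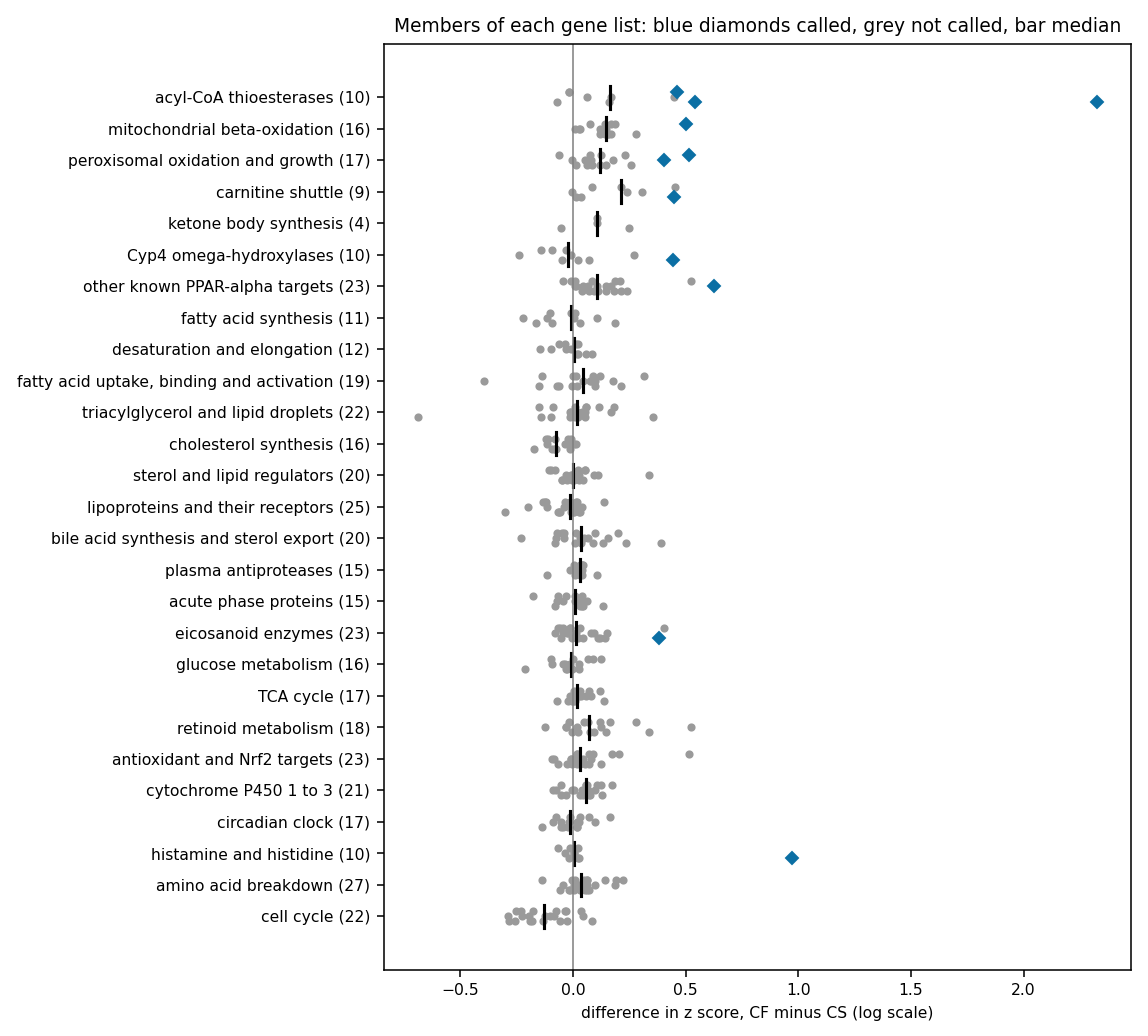
Difference in z score between CF and CS (horizontal axis, log scale) for each measured member of 27 gene lists, with the number measured in brackets. Blue diamonds are called genes, grey points are genes not called, and black bars are medians. The 11 called genes lie at 0.38 to 2.33, and the medians of the carnitine shuttle, thioesterases and mitochondrial β-oxidation lie at 0.145 to 0.212.

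Vnn1 encodes vanin-1, a pantetheinase that frees cysteamine and is a PPARα target in liver. It was at 1.40, 1.40, 1.64, 1.61 and 1.59 in CF-1, CF-2, CF-5, CF-6 and CF-7 and at 1.18, 0.832, 0.838, 0.819 and 0.848 in CS-1, CS-2, CS-5, CS-6 and CS-7. CS-1 lay above the other CS rats, and below every CF rat. The difference was 0.62 (SE 0.1001, adjusted p = 0.0200), or 2.95-fold.

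Cyp4a1, the fatty acid ω-hydroxylase, ranged from 2.59 to 2.89 in CF and from 2.13 to 2.39 in CS. It rose by 0.44 (SE 0.0753, adjusted p = 0.0283), or 2.16-fold. Its neighbour in the family Cyp4a3 had a difference of 0.27 (adjusted p = 0.610) with no overlap, while Cyp4f5 had one of -0.24 (adjusted p = 1.0). Of 10 genes in that list 4 were positive, and its median was -0.02.

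Among 23 other known targets of PPARα, 21 had a positive difference (median 0.11) and Vnn1 was the only one called. Retsat, the retinol saturase, was at 2.51 to 2.86 in CF and 1.76 to 2.33 in CS, a difference of 0.53 with an SE of 0.156 (adjusted p = 0.866). Creb3l3, a transcription factor of the fasted liver, differed by 0.24 (adjusted p = 0.126) without overlap. Plin5, a protein of lipid droplets, and Mlycd, which removes malonyl-CoA, differed by 0.17 and 0.11. The receptor gene Ppara itself, picked after its values were seen, differed by 0.02 (SE 0.0624), and Fgf21 and Angptl4, picked in the same way, by -0.04 and 0.15.

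Hdc, Cyp2j4 and Aig1 lie outside fatty acid oxidation. Hdc, the histidine decarboxylase that makes histamine, was at 0.605, 1.13, 0.949, 1.37 and 0.903 in CF-1, CF-2, CF-5, CF-6 and CF-7. It was at -0.0443, 0.232, -0.199, -0.207 and 0.318 in CS-1, CS-2, CS-5, CS-6 and CS-7. CF-1 was the lowest CF rat, and the CS rats lay around the middle of the array. The difference was 0.97 (SE 0.133, adjusted p = 0.00569).

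Mast cells are the best known source of Hdc. The mean of 6 mast cell markers was between -0.558 and -0.341 in CF and between -0.501 and -0.339 in CS. None of the 6 had an unadjusted p under 0.05, and Cpa3, the mast cell carboxypeptidase, was at -0.333 to 0.052 in CF and -0.192 to 0.0278 in CS. The marker means lay below the middle of the array in every CF and CS rat, where a change may not show. The cell source of Hdc was not tested. No other gene of the histamine and histidine list (10 measured) was called. Of the 63 markers of 11 cell types measured, 0 were called by limma, with 3 higher and 2 lower in CF at an unadjusted p under 0.05. The mean of 8 hepatocyte markers was 2.75 to 2.88 in CF and 2.73 to 2.85 in CS.

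Cyp2j4, a cytochrome P450 that forms epoxides of fatty acids, ranged from 1.38 to 1.62 in CF and from 1.03 to 1.25 in CS. It rose by 0.38 (SE 0.0582, adjusted p = 0.0124), or 1.94-fold. It was the only called gene among 23 for eicosanoid enzymes, whose median was 0.015. Ephx2, the soluble epoxide hydrolase, had a difference of 0.41 with an SE of 0.292 and overlapping groups, and Ephx1 one of 0.15 (adjusted p = 1.0 for both). Aig1, a hydrolase of fatty acid esters of hydroxy fatty acids, ranged from 0.989 to 1.30 in CF and from 0.613 to 0.778 in CS. It rose by 0.46 (SE 0.0750, adjusted p = 0.0200), or 2.24-fold, and it belonged to none of the lists. A second, dimmer Aig1 probe set had a difference of -0.01.

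The single probe set that fell belongs to Pnpla3, which encodes adiponutrin, a lipase and transacylase of lipid droplets whose gene is driven by SREBP-1c. It was at 0.168, 0.364, 0.195, 0.418 and 0.304 in CF-1, CF-2, CF-5, CF-6 and CF-7. It was at 0.672, 0.968, 0.866, 0.786 and 1.24 in CS-1, CS-2, CS-5, CS-6 and CS-7. Every CF rat lay below every CS rat, and the mean fell by 0.62 (SE 0.0797, adjusted p = 0.00496), or 2.91-fold. The other 2 Pnpla3 probe sets also did not overlap, at differences of -0.69 (adjusted p = 0.0785, the brightest of the 3) and -0.73 (adjusted p = 0.0648).

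Genes of lipogenesis were not called. Of 11 for fatty acid synthesis 5 were positive and 6 negative, with a median of -0.0085. Fasn, the fatty acid synthase, had a difference of -0.22 (SE 0.135, adjusted p = 1.0), with 1.92 to 2.55 in CF and 2.01 to 2.59 in CS. Acaca, the acetyl-CoA carboxylase, differed by -0.16 and Thrsp by -0.12, while Me1 differed by 0.19. Among 12 genes for desaturation and elongation the median was 0.00425, and the largest differences were those of Scd (-0.15) and Elovl6 (-0.10). Of 16 genes for cholesterol synthesis 14 were negative, with a median of -0.08, and none was called. Over all genes 6845 of 14217 were negative. Tm7sf2 and Sqle had the largest differences, at -0.17 and -0.12. In TF against TS, 9 of the 16 were positive, with a median of 0.0062.

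Fabp5, a fatty acid binding protein, had the next largest difference after Pnpla3 among the lipid genes lower in CF, at -0.40 (1.25 to 1.86 in CF, 1.76 to 2.18 in CS, adjusted p = 0.875). In lipid droplets Cidea differed by 0.36 without overlap (adjusted p = 0.382). Slc27a2, an importer that also activates fatty acids, differed by 0.18 without overlap (adjusted p = 0.321). Of 25 apolipoproteins and lipoprotein receptors 0 were called by limma, with 1 higher and 3 lower at an unadjusted p under 0.05, among them Apoa4 at -0.30 and Apoc4 at -0.20. Sterol export and bile acid genes had Abca1 at 0.39 (adjusted p = 0.647), Abcg5 at 0.24, Cyp8b1 at 0.20 and Abcc3 at -0.23, none called. Nr1i3, the receptor CAR, differed by 0.34 (adjusted p = 0.761) and Scap, the escort of SREBP, by -0.10 (adjusted p = 1.0).

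In retinoid metabolism 5 of 18 genes were higher at an unadjusted p under 0.05, where 2.14% of all genes were. None was called, and Retsat, Aldh1a1 (0.34) and Rdh16 (0.28) had the largest differences. In the antioxidant list Nqo1, the quinone reductase, was at 1.24, 1.18, 1.32, 1.09 and 1.31 in CF-1, CF-2, CF-5, CF-6 and CF-7. It was at 0.825, 0.816, 0.316, 0.822 and 0.786 in CS-1, CS-2, CS-5, CS-6 and CS-7. CS-5 was the lowest rat, and no CF rat was below a CS rat. The difference of 0.52 had an adjusted p of 0.0573, just above the threshold. Of 22 cell cycle genes 19 were negative with a median of -0.13, 1 had an unadjusted p under 0.05 (Mcm6, -0.25) and none was called. Ccna2 and Mki67 both had a difference of -0.29 and overlapping groups, and CF-7 was the lowest CF rat in both. The mean of the list was 0.0347 in CF-7 and 0.207 to 0.326 in the other CF rats, against 0.220 to 0.521 in CS. In TF against TS, 12 of the 22 were positive.

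Apart from Pnpla3, genes lower in CF did not pass the threshold. By the lowest unadjusted p they were Zik1 (-0.55, adjusted p = 0.113), Mgp (-0.23, adjusted p = 0.179), Angpt4 (-0.24, adjusted p = 0.269), S100a1 (-0.19), Csrp1 (-0.21), Lztfl1 (-0.33), Arsl (-0.14), Pabir2 (-0.22) and Fabp5. Of these Zik1, Angpt4, Lztfl1 and Pabir2 had both group means below 0. All 5 CF rats lay below all 5 CS rats in 31 genes (0.218%) and above them in 81. At an unadjusted p under 0.05, 1.26% of genes were lower in CF. The remaining lists (fatty acid uptake, sterol and lipid regulators, plasma antiproteases, acute phase proteins, glucose metabolism, TCA cycle, cytochrome P450 families 1 to 3, circadian clock and amino acid breakdown) held no called gene, and their medians lay between -0.0122 and 0.0568. In the TCA cycle list Idh1, the cytosolic isocitrate dehydrogenase, differed by 0.12 without overlap (adjusted p = 1.0), and by -0.07 with the mean of all its probe sets.

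The same oils were compared on tofu in other rats, TF against TS, with no array in common. Both comparisons came from the same fit of 20 arrays and share its estimate of the spread of each probe set. Their differences are from separate rats, but their calls are not independent. In that comparison 21 probe sets were called (0.0677%), all higher in TF. All 14 probe sets called on casein had the same sign on tofu, where 53.1% of all probe sets did, and 12 of them were also called there. Acot1 differed by 2.33 on casein and 2.29 on tofu, Hdc by 0.97 and 0.89, Ehhadh by 0.52 and 0.51, and Crot by 0.45 and 0.38. The differences on tofu were larger for 8 of the 14, among them Eci1 at 0.69, Vnn1 at 0.78 and Cyp4a1 at 0.62. Cyp2j4 differed by 0.31 on tofu with an adjusted p of 0.0598. Of the 21, 9 were not called on casein, and 20 had the same sign there at an unadjusted p under 0.05.

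**Figure D3:**
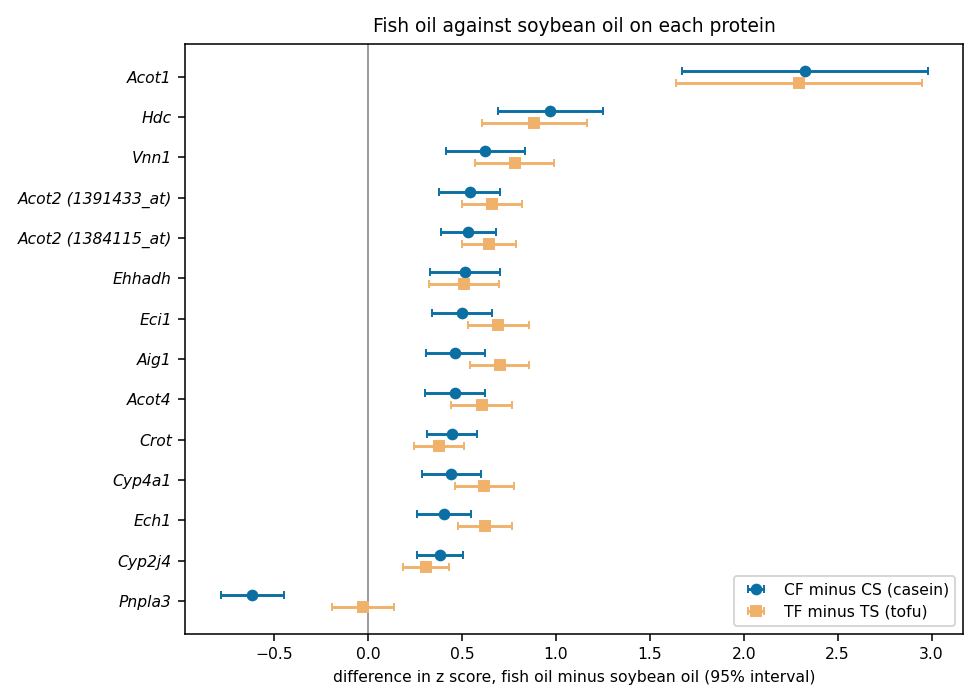
Difference in z score between fish oil and soybean oil (horizontal axis, with 95% intervals) for the 14 probe sets called in CF against CS, on casein (blue circles) and on tofu (orange squares). The intervals overlap for all but Pnpla3, which differed by -0.62 on casein and -0.03 on tofu.

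The difference between the proteins was tested as the interaction of oil and protein, and 0 of 31039 probe sets were called by limma (lowest adjusted p = 0.484, 1065 at an unadjusted p under 0.05). Among the 14, 3 had an unadjusted p under 0.05 in that test. They were the Pnpla3 probe set (limma p of 5.01e-05), Aig1 (0.0373) and Ech1 (0.0378). Aig1 and Ech1 had the larger difference on tofu. The 14 were chosen by their difference on casein, which is also part of the interaction, so these p values are not a separate test. The interval of the interaction of the Pnpla3 probe set, under the same limit, was 0.354 to 0.827. The brightest Pnpla3 probe set had an interaction of 0.22, with an interval of -0.18 to 0.61. The remaining one had an interaction of 0.55, with an interval of 0.15 to 0.95.

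In the tofu rats that Pnpla3 probe set was at -0.65 to -0.46, below the middle of the array in every rat, whatever the oil. The 2 other Pnpla3 probe sets had differences of -0.47 (the brightest, unadjusted limma p of 0.00236, adjusted p = 0.496) and -0.18 on tofu. Their means there were also below 0, at -0.52 in TF and -0.05 in TS for the brightest, and at -0.30 and -0.12 for the other. How far such low values limit a further fall was not tested. Nqo1 ran the opposite way on tofu, at 1.13 to 1.46 in TF and 1.30 to 1.66 in TS (difference -0.22, unadjusted limma p of 0.0336). Its interaction had an unadjusted limma p of 2.84e-05, among the lowest of all probe sets, which did not pass adjustment (adjusted p = 0.484). Nqo1 was named for its difference on casein, which is part of the interaction, so that p value is not a separate test.

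**Figure D4:**
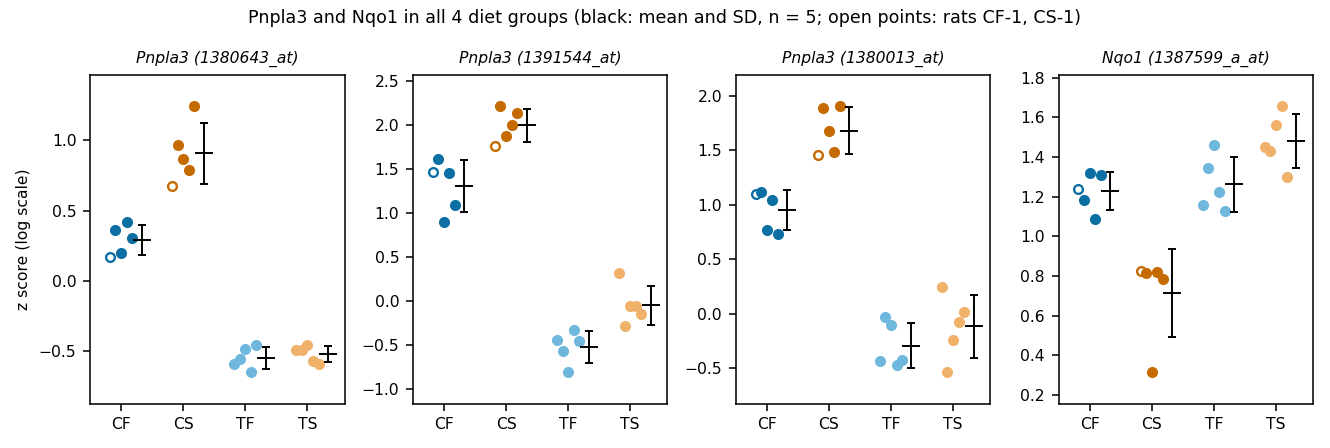
Z score (log scale) of each rat in the 4 diet groups for the 3 probe sets of Pnpla3 and for Nqo1, with the mean and SD of 5 rats in black and CF-1 and CS-1 open. Pnpla3 is highest in CS, lower in CF and lowest on tofu, and Nqo1 is lowest in CS.

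Leaving out single rats changed the calls. The probe sets of Acot1, Acot2 (both), Hdc, Crot and Pnpla3 were called whichever CF or CS rat was left out, with adjusted p up to 0.0355. The other 8 all lost the call without CF-5 (adjusted p up to 0.143), without CF-6, without CS-6 and without CS-7. Vnn1, Aig1, Acot4, Ech1, Cyp4a1 and Ehhadh also lost it without CF-7 and without CS-5. The last 4 of these lost it without CF-2, and some lost it without CS-1 (Acot4, Cyp4a1 and Ehhadh) or CS-2 (Vnn1, Ech1, Cyp4a1 and Ehhadh). None lost it without CF-1. In a fit of the 10 CF and CS arrays alone 0 were called by limma (lowest adjusted p = 0.0580, 1445 at an unadjusted p under 0.05). The differences of the group means are the same in that fit, so their direction could not change.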

How the data were processed

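Liver RNA of 20 rats was measured on Affymetrix Rat Genome arrays. The authors deposited a z score for every rat and probe set, calculated by the SuperNORM service from the signals of each array. The version, the background treatment and the log base are not given in the sources used here. The table held 31099 probe sets, and after removal of 57 controls and of those with fewer than 3 values in a group, 31039 entered the tests. Symbols came from the array annotation, updated by gene identifier (20757 updated, 68 kept), and 20825 tested probe sets had 1 symbol, 436 several and 9778 none.

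The means of the 4 groups were estimated from the 20 arrays with limma 3.58.1 in R 4.3.3, tested on simulated data first. Its contrasts were CF against CS, TF against TS and their difference. P values were adjusted by the Benjamini-Hochberg method over all probe sets. Named genes are the called genes, the lowest p values among genes lower in CF, up to 4 more genes per list by size of difference, and genes the study names for fish oil. The comparison, the gene lists (27 pathway and 11 cell type lists) and the naming rule were chosen with earlier results of these data known. Each array is a separate rat, housed singly. Sequences are from RefSeq (GRCr8).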

Additional observations from a re-analysis of the deposited data

Results flagged for a closer look

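The highest and lowest rat of CF and of CS were compared with the rest of the group for the 24 probe sets that were called or had the lowest p values among genes lower in CF, and for 7 array checks. Of 62 groups 10 had a rat set apart by most of the range, where chance gives about 1 in 20.

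Of the 10, 4 were in a control. The 5′ beta-actin value was 1.42 in CF-1 (other CF rats 2.03 to 2.13) and 1.39 in CS-1 (other CS rats 1.95 to 2.12). The 3′ minus 5′ difference was 0.771 in CF-1 (others 0.446 to 0.4998) and 0.783 in CS-1 (others 0.426 to 0.483). The part of these arrays in any gene's value was not tested beyond the fits without them.

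Vnn1 was at 1.18 in CS-1 and at 0.819 to 0.848 in the other CS rats. The brighter Acot2 probe set was at 1.48 in CS-2 (others 1.29 to 1.33), and Cyp4a1 at 2.13 in CS-6 (others 2.34 to 2.39). Among genes that were not called, Mgp was at 1.195 (others 1.08 to 1.10) and Angpt4 at -0.337 (others -0.237 to -0.206) in CF-5, and Arsl at 0.353 in CS-7 (others 0.494 to 0.540).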

How the results depend on the processing

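Probe sets called in CF against CS numbered 14 (13 higher, 1 lower). They numbered 0 with only the 10 CF and CS arrays, 6 (5 higher) with the rat number as a block, 8 (7 higher) without moderation, 24 (22 higher, 2 lower) with a variance trend, 27 (23 higher, 4 lower) with array weights and 29 (25 higher, 4 lower) with only probe sets of a mean z above 0. Quantile normalization gave 18 (16 higher, 2 lower) and kept all 14, and equal medians and ranges gave 12 and kept 12. An adjusted p under 0.1 gave 25 (22 higher, 3 lower), and an unadjusted p under 0.01 with a difference above 0.2 gave 185 (134 higher, 51 lower). Leaving out each rat gave 6 to 22 calls (5 to 21 higher, 1 lower each time). The 14 kept their direction in all 19 of these fits, most of which could not have changed it. Fits that changed only the arrays in the model, the block, the variance or the probe sets tested left the difference of means as it was. Groups without overlap also cannot change sign when rats are left out or weighted. Only the changes of normalization could have turned a direction.

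Rats that share a number correlated at 0.0495 to 0.127 in their deviations, and 4 of 5 CF rats were closest to the CS rat of their own number. What a number marks is not given in the sources used here. The main fit did not use the numbers, and whether they mark something shared was not tested. With the number as a block, 6 of the 14 kept the call. The fit with the block had 12.5 degrees of freedom against 18.7, and the cause of its lower count was not tested. The interaction had 0 calls and the 14 same signs on tofu stood in every alternative tried for them. Nqo1, Crat, Nudt7, Decr2 and Pex11a passed the threshold with a variance trend, with array weights and with only bright probe sets. Echs1 changed sign with quantile normalization (-0.00453), without the low 5′ beta-actin arrays (-0.0108), and over fits without single rats (-0.0122 to 0.0339), and Idh1 with the mean of its probe sets (-0.0722). The cause was not tested. With 5 rats a group, the median SE of a difference was 0.0754.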
